A study of Mus musculus with 4 samples.

Results

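Snap25, Vamp2, Stx3, Nsf and the complexins Cplx1, Cplx2, Cplx3 and Cplx4 encode parts of the machinery that fuses synaptic vesicles with the plasma membrane, and they were taken as a list of 8 genes. The list was chosen with earlier results of these data known. A gene was measured where the platform annotation gave a feature (a probe set on the array) to that gene symbol alone. This held for 7 of the 8, each with 1 feature, out of 18920 genes measured in all. The feature that lists Vamp2 lists a second gene as well, so no value is given for Vamp2.

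The study dissected retinas from BAC-Crx-EGFP mice on the 129Sv/Ev background at E17.5 of embryonic development and sorted the cells by fluorescence. In these mice a bacterial artificial chromosome places enhanced green fluorescent protein (EGFP) under the control of Crx, a homeobox gene of photoreceptor precursors. The EGFP-positive fraction holds the cells with reporter signal and the EGFP-negative fraction all other retinal cells, which carry the same transgene. Each fraction gave 2 samples with 1 Affymetrix array each, and the labels leave unstated whether the replicates are separate animals or sorts. The p-values therefore speak of the spread among these arrays, which may be technical. The comparison asked what the reporter-positive cells express that sets them apart from the remaining retina.

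A synaptic vesicle fuses when a SNARE protein of the vesicle, such as synaptobrevin (Vamp2), winds together with SNAREs of the target membrane, Snap25 and a syntaxin. The ATPase Nsf then takes the spent complex apart so that its parts can be used again. Complexins are small proteins that bind the assembled SNARE complex and set when calcium triggers fusion. Photoreceptors release glutamate continuously at ribbon synapses, where syntaxin 3 (Stx3) takes the place of the syntaxin 1 of conventional synapses. The complexins of the retina divide in the same way, Cplx3 and Cplx4 being known from ribbon synapses and Cplx1 and Cplx2 from conventional ones.

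For the members whose log2 difference between fractions was at least 1 and for which a promoter window was at hand (Stx3, Cplx2 and Cplx3), the 250 bases before the annotated start are shown, 5′ to 3′ on the gene's strand. They were taken from RefSeq on the assembly GRCm38.p6, and the capitals mark TAATC. The windows lie on chr19:11819404-11819653 (minus strand), chr13:54302306-54302555 (plus strand) and chr9:57606282-57606531 (minus strand).
Stx3: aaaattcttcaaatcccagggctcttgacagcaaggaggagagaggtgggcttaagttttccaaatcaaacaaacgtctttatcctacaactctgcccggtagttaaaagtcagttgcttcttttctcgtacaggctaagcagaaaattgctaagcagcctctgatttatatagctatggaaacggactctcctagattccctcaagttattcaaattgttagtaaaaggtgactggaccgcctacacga
Cplx2: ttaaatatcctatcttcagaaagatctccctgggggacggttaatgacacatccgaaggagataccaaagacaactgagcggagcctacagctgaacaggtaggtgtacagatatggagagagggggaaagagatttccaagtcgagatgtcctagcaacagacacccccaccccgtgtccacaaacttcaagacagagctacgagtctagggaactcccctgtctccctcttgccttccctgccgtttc
Cplx3: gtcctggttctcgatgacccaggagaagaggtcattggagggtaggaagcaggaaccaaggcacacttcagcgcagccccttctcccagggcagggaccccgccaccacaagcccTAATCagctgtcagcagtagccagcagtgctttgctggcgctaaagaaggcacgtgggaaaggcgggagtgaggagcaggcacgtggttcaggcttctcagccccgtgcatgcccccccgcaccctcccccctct
The Stx3 and Cplx2 windows precede a start that lies inside the gene's outer bounds in RefSeq, so another transcript of each gene begins further upstream. Windows were at hand for 5 members, the others being Nsf and Cplx1. None of the 5 held TAATCC, the core bound by Crx and Otx2, or CAGATG, an E-box bound by Neurod1, on either strand. These letters occur in 6.3% and 14.4% of all 32851 windows of the same length. The shorter TAATC, which is contained in TAATCC and was searched for after the windows had been seen, occurred in Cplx3, 135 bases before the start, and on the other strand in Cplx1, 208 bases before the start. It occurs in 19.8% of all windows. A match describes the letters and is not evidence of binding.

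Stx3, the syntaxin gene of ribbon synapses, rose in the EGFP-positive fraction and was the 1 member to pass the test, while all 7 measured members had a positive difference. The differences ran from 0.24 on the log2 scale for Cplx4 to 2.32 for Snap25, with a median of 1.18 against -0.01 over all genes. By limma with Benjamini-Hochberg adjustment over all 22431 features, 1 of 7 members was called higher and 0 were called lower, and 6 had an unadjusted p under 0.05. Across all features, 0.82% were called higher and 0.143% lower, and 9.34% were higher at an unadjusted p under 0.05. Both EGFP-positive arrays lay above both EGFP-negative arrays for all 7 members, which was true of 22.3% of all features. Because the members were chosen with earlier results of these data known, their shared direction is no independent evidence. Fewer cells of a type and less RNA per cell cannot be told apart in such bulk samples.

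**Figure D1:**
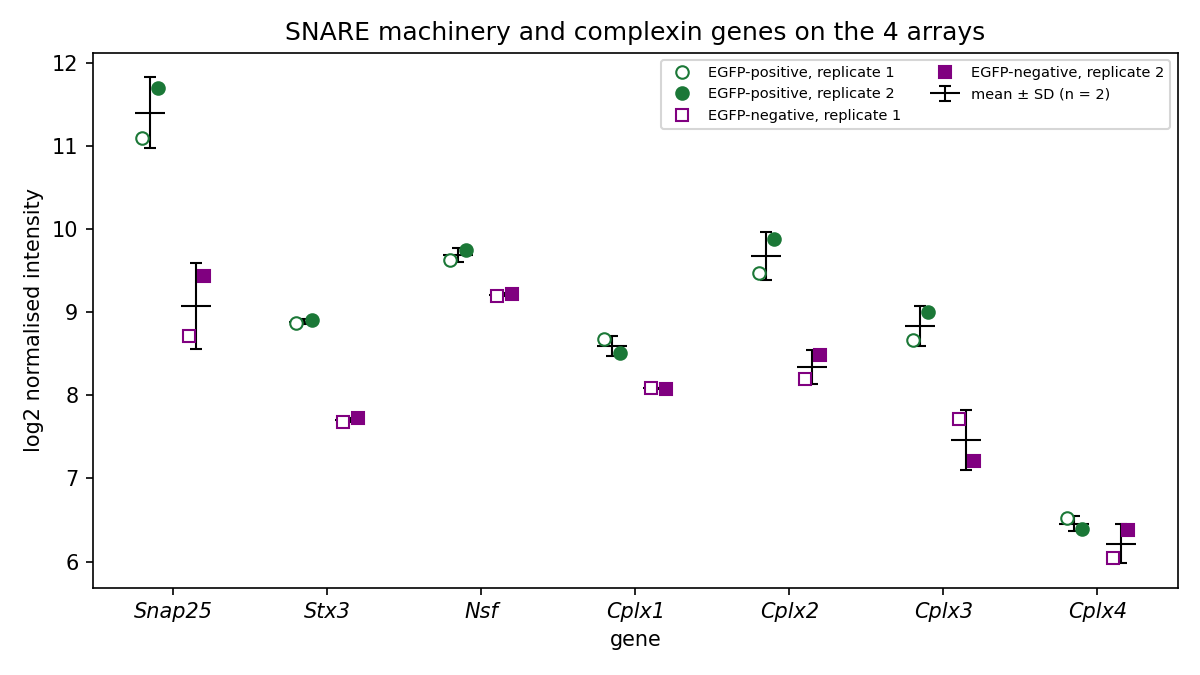
Log2 normalised intensity of the 7 measured genes on each of the 4 arrays, with EGFP-positive arrays as circles and EGFP-negative arrays as squares, replicate 1 open and replicate 2 filled, and bars for the mean ± SD of 2 arrays. Within each gene both positive arrays lie above both negative ones, closely for Cplx4, where replicate 2 read 83.8 when positive and 83.4 when negative. Heights of different genes are not comparable.

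The syntaxin gene Stx3 (feature 10466248, Entrez gene 20908) rose in the EGFP-positive fraction with the least spread of the members that differed by at least 1. Its intensity was 466.4 and 478.9 on the positive arrays and 205.5 and 211.4 on the negative arrays. The replicates of each fraction nearly coincided, and the fractions were clearly apart. As log2 intensity this was 8.88 ± 0.03 against 7.70 ± 0.03 (SD, n = 2), a 2.27-fold difference (log2 difference 1.18 ± 0.10, SE, 95% interval 0.93 to 1.43, limma adjusted p = 0.0174). The call was lost without negative replicate 1 (adjusted p = 0.215) and without negative replicate 2 (adjusted p = 0.166), fits in which limma called 0 features in all, with 1192 and 1504 higher at an unadjusted p under 0.05.

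Snap25 (feature 10476512, Entrez gene 20614), the SNARE of the target membrane that pairs with a syntaxin, had the highest difference of the members. It read 2185.3 and 3321.2 on the positive arrays and 418.0 and 693.3 on the negative arrays. The lowest positive array was well above the highest negative one, but replicate 2 exceeded replicate 1 in both fractions. The difference was 5.0-fold (log2 difference 2.32 ± 0.31, 95% interval 1.54 to 3.10), and the adjusted p of 0.0506 missed the threshold. Among all genes 30 had a higher difference, so that Snap25 ranked 31 of 18920. Snap25 passed with each array centred on its median (limma adjusted p = 0.0449), with a robust variance trend (0.0390) and in a fit over genes (0.0409). It did not pass with quantile normalisation repeated (0.0590), with 16 added to each value (0.0599) or without features below the 25th percentile (0.0504). Leaving out 1 array gave log2 differences from 1.96 to 2.69.

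Nsf (feature 10391963, Entrez gene 18195), which resets SNARE complexes in membrane traffic throughout the cell, differed less. It read 793.2 and 861.8 on the positive and 585.2 and 595.9 on the negative arrays, a 1.40-fold difference that was not called (log2 difference 0.49 ± 0.10, 95% interval 0.22 to 0.75, adjusted p = 0.0993). The fractions did not overlap, and their means were further apart than the replicates of either.

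The complexins fell into a pair with differences above 1 and a pair below 0.6, each pair holding 1 ribbon and 1 conventional type. The ribbon type of the lower pair, Cplx4, stood at percentile 16.1 of all features, so its small difference says little. Cplx3 (feature 10593947), a complexin of ribbon synapses, read 404.3 and 512.5 on the positive arrays against 210.4 and 147.7 on the negative ones. This was a 2.58-fold difference (log2 difference 1.37 ± 0.21, 95% interval 0.83 to 1.91, adjusted p = 0.0673). Cplx3 did not pass with each array centred on its median (limma adjusted p = 0.0634), with a robust variance trend (0.0556) or in a fit over genes (0.0564). Nor did it pass with quantile normalisation repeated (0.0692), with 16 added to each value (0.0721) or without features below the 25th percentile (0.0653). It passed with the replicate number as a block (0.0144). Leaving out 1 array gave log2 differences from 1.11 to 1.62. The replicates went opposite ways, with replicate 2 the higher of the positive and the lower of the negative arrays.

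Cplx2 (feature 10405253), of conventional synapses, read 709.2 and 940.5 on the positive and 294.1 and 359.2 on the negative arrays. The 2.51-fold difference (1.33 ± 0.18 on the log2 scale, 95% interval 0.87 to 1.79) had an adjusted p of 0.0533. Its replicate 2 exceeded replicate 1 in both fractions, as for Snap25. Cplx2 passed with each array centred on its median (limma adjusted p = 0.0480), with a robust variance trend (0.0462) and in a fit over genes (0.0432). It did not pass with quantile normalisation repeated (0.0540), with 16 added to each value (0.0618) or without features below the 25th percentile (0.0525). Leaving out 1 array gave log2 differences from 1.13 to 1.53.

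Cplx1 (feature 10532180), the closest relative of Cplx2, read 410.0 and 363.2 on the positive and 272.4 and 270.8 on the negative arrays. The difference was 1.42-fold (0.51 ± 0.11, 95% interval 0.23 to 0.79, adjusted p = 0.102). Its interval lay below that of Cplx2 without touching it, though the difference between the genes was not tested. Cplx4 (feature 10459475), the other ribbon complexin, read 91.7 and 83.8 on the positive and 66.2 and 83.4 on the negative arrays. Its fractions all but met at replicate 2, and the log2 difference of 0.24 ± 0.15 had a 95% interval from -0.13 to 0.61 (adjusted p = 0.477). The mean of this feature stood at percentile 16.1 of all features.

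**Figure D2:**
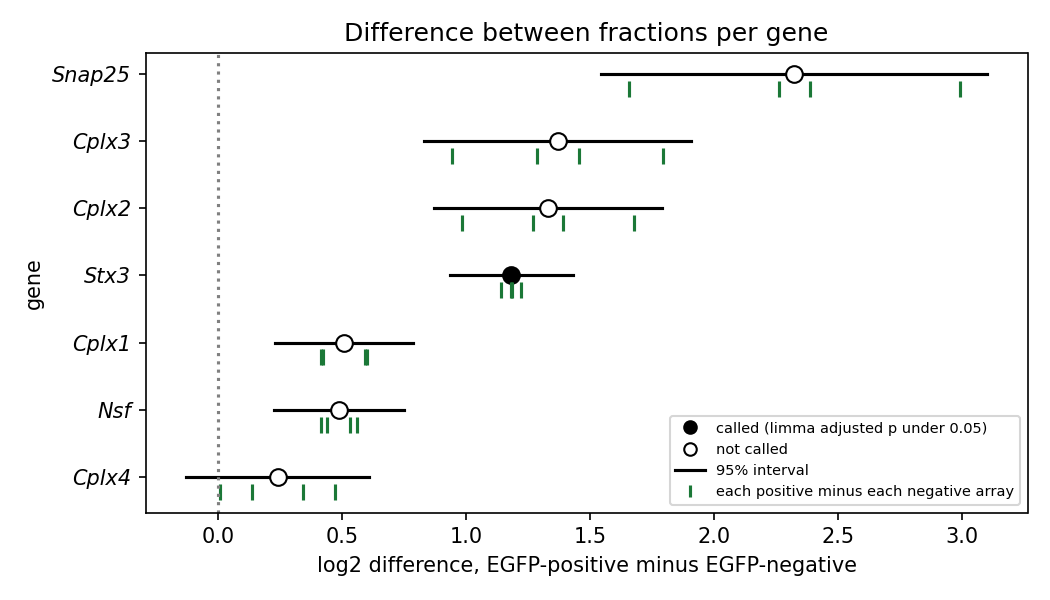
Log2 difference of each gene, EGFP-positive minus EGFP-negative, with limma's 95% interval as a line and a filled point where the gene was called. Green ticks under each point are the 4 differences between single arrays, which for Snap25 run from 1.66 to 2.99 and for Stx3 from 1.14 to 1.22.

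The order of the differences was Snap25, Cplx3, Cplx2, Stx3, Cplx1, Nsf and Cplx4. The estimates for Cplx3, Cplx2 and Stx3 lay within the intervals of each other, as did those for Cplx1 and Nsf. The interval of Cplx4 held the estimates of Cplx1 and Nsf. Those of Snap25 and Stx3 did not overlap, whereas that of Snap25 overlapped with those of Cplx3 and Cplx2.

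The replicates of a fraction differed unequally among the members. Snap25 was higher in replicate 2 than in replicate 1 by 0.60 (log2) among the positive and by 0.73 among the negative arrays. Cplx2 was higher there by 0.41 and 0.29. The SD of this replicate difference over all genes was 0.27 for the positive and 0.22 for the negative arrays, so both genes exceeded it in both fractions. For Cplx3 it was 0.34 for the positive and -0.51 for the negative arrays. For Stx3 the replicate difference was 0.04 in each fraction. In both fractions 4 of 7 members read higher on replicate 2, against 27.8% of all genes.

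**Figure D3:**
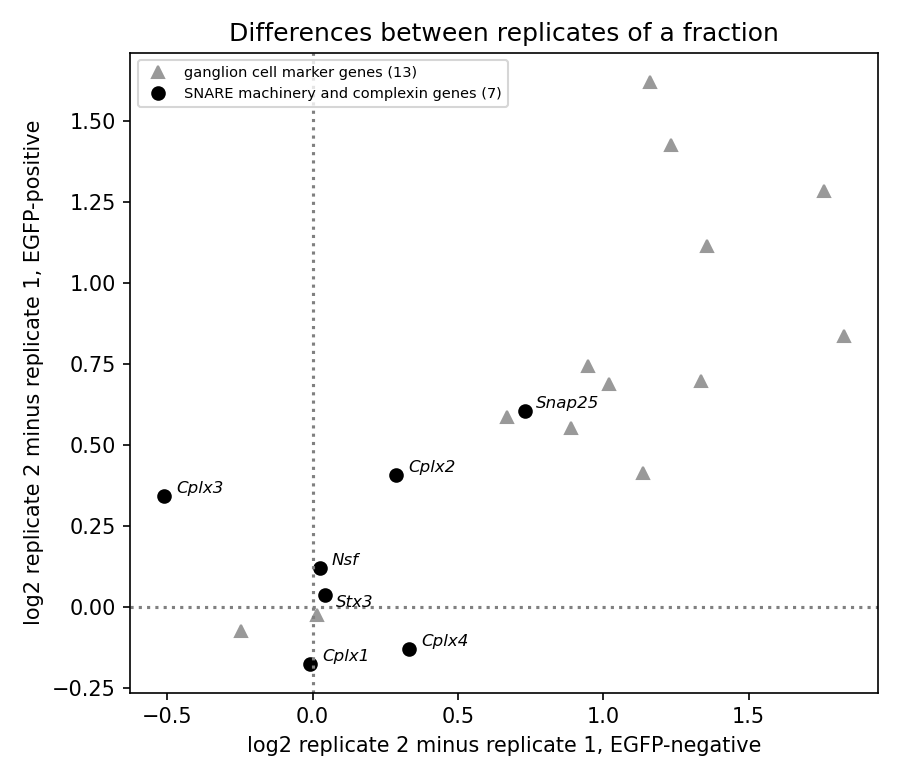
Replicate 2 minus replicate 1 in log2 intensity, with the EGFP-negative fraction on the horizontal and the EGFP-positive fraction on the vertical axis, for the 7 genes (circles) and 13 ganglion cell marker genes (triangles). Snap25 and Cplx2 lie in the upper right with most of the ganglion cell genes, Stx3 and Nsf lie near 0, and Cplx3 is positive on the vertical and negative on the horizontal axis. Markers of progenitors and dividing cells are not drawn, and 13 of 14 of them read lower on replicate 2 in both fractions.

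Because SNARE and complexin genes are used by many retinal neurons, marker genes of the cell types were read on the same arrays. Of 11 photoreceptor markers 8 were called higher, and Crx read 3628.7 and 4758.8 on the positive against 292.2 and 370.1 on the negative arrays. All 14 measured markers of progenitors and dividing cells had a negative difference, with a median of -1.13, and Sox2 was called lower. The sum of these markers was 27800.9 and 17687.3 on the positive and 46481.8 and 41445.2 on the negative arrays. In both fractions 13 of 14 read lower on replicate 2. The 13 ganglion cell markers had a median difference of 0.06, and none was called (0 at an unadjusted p under 0.05). Their summed intensity was 6762.7 and 11739.9 on the positive and 5761.5 and 12853.5 on the negative arrays, and in both fractions 11 of 13 read higher on replicate 2. The summed amacrine markers read 5591.9 and 5747.9 on the positive and 3821.5 and 3582.4 on the negative arrays, with 8 of 8 above 0 and 2 called higher. Of 6 horizontal cell markers 5 were above 0 and 1, Tfap2a, was called. Tfap2a stands in both lists and is also 1 of the 2 amacrine markers called. The sum of the horizontal cell markers was 2725.4 and 4585.0 on the positive and 2101.8 and 2008.7 on the negative arrays. The lowest readings of the ganglion and amacrine markers were 117.5 and 225.6. No feature on these arrays read below 18.9, so a reading above 0 does not by itself show expression. The part of amacrine, horizontal and progenitor cells in the members' differences was not tested. The same holds for the part of ganglion and progenitor cells in their replicate differences.

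SNARE proteins outside the list, most of which serve membrane traffic in all cells, showed no common direction. Of 31 measured, 0 were called in either direction by limma, 1 higher and 4 lower had an unadjusted p under 0.05, and 15 had a positive difference (median -0.005). At that unadjusted threshold 2094 of all 22431 features were higher and 2204 lower. The largest differences of these 31 genes were negative. Vamp3, the vesicle SNARE of endosomes and a close relative of Vamp2, read 402.7 and 391.3 on the positive and 609.2 and 639.4 on the negative arrays (-0.65 ± 0.10, adjusted p = 0.0663). Stx4a, the mouse symbol for syntaxin 4 of the plasma membrane, had a difference of -0.59 ± 0.24 (adjusted p = 0.274).

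Single relatives of the members within this list differed in sign. Snap23, the counterpart of Snap25 in most non-neuronal cells, read 438.3 and 505.8 on the positive and 574.9 and 605.5 on the negative arrays (-0.33 ± 0.12, adjusted p = 0.228). Stx2 read 275.3 and 279.7 against 389.2 and 394.8 (-0.50 ± 0.10, adjusted p = 0.0871). Stx1a, the syntaxin of conventional synapses, had a difference of 0.33 ± 0.11 (adjusted p = 0.194), and Snap29, a further relative of Snap25, one of 0.11 ± 0.17 (adjusted p = 0.834). These 4 genes were chosen after their values were seen, and none of them passed the test.

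Among 19 measured regulators of SNARE assembly and disassembly, 0 were called by limma in either direction, while 5 were higher and 2 lower at an unadjusted p under 0.05 (median 0.15). Stxbp5, which encodes tomosyn, a protein that holds syntaxin and Snap25 in an inactive complex, read 1448.1 and 2100.0 on the positive and 664.7 and 553.9 on the negative arrays. Its difference of 1.52 ± 0.21 had an adjusted p of 0.0533. Napb, the neuronal form of the adaptor by which Nsf grips the SNARE complex, read 446.5 and 639.1 against 239.5 and 305.4 (0.98 ± 0.22, adjusted p = 0.103). The widely expressed form, Napa, named here with its values known, differed by 0.21 ± 0.12 (adjusted p = 0.427). Unc13a, chosen likewise, which primes vesicles by opening syntaxin, differed by 0.88 ± 0.20 (adjusted p = 0.113).

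Of 24 genes for proteins of the synaptic vesicle and its recycling, 3 were called higher and 0 lower by limma, 15 higher and 0 lower had an unadjusted p under 0.05, and the median difference was 0.49. Sv2b and Syp were already known from earlier results on these samples, so their direction is no independent evidence. Sv2b, a vesicle glycoprotein, read 1410.4 and 1650.6 on the positive and 320.1 and 319.4 on the negative arrays. Syp, synaptophysin, which binds Vamp2, read 1648.6 and 2202.7 against 424.7 and 432.6. Atp6v0a1, a subunit of the proton pump that loads vesicles, read 1927.8 and 2383.4 against 812.1 and 772.1 (1.44 ± 0.14, adjusted p = 0.0260).

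The vesicular glutamate transporter genes, taken from the same list after their values were seen, did not pass the test. Slc17a7, the transporter of mature photoreceptors, read 216.3 and 195.8 on the positive and 138.2 and 135.8 on the negative arrays (0.59 ± 0.11, adjusted p = 0.0832). Slc17a6, which also stands among the ganglion cell markers, read 159.0 and 489.3 against 117.5 and 262.8, so that its fractions overlapped. Slc17a8 read 121.0 and 121.3 against 116.9 and 124.3 (0.01 ± 0.10, adjusted p = 0.986). The 4 genes of the list that retrieve vesicle membrane, also named with their values known, were not called either. Dnm1, encoding dynamin 1, differed by 1.38 ± 0.21 (adjusted p = 0.0672) and Synj1, encoding synaptojanin, by 0.93 ± 0.18 (adjusted p = 0.0862). Amph, encoding amphiphysin, differed by 0.67 ± 0.24 (adjusted p = 0.231) and Sh3gl2, encoding endophilin, by 0.34 ± 0.12 (adjusted p = 0.228).

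**Figure D4:**
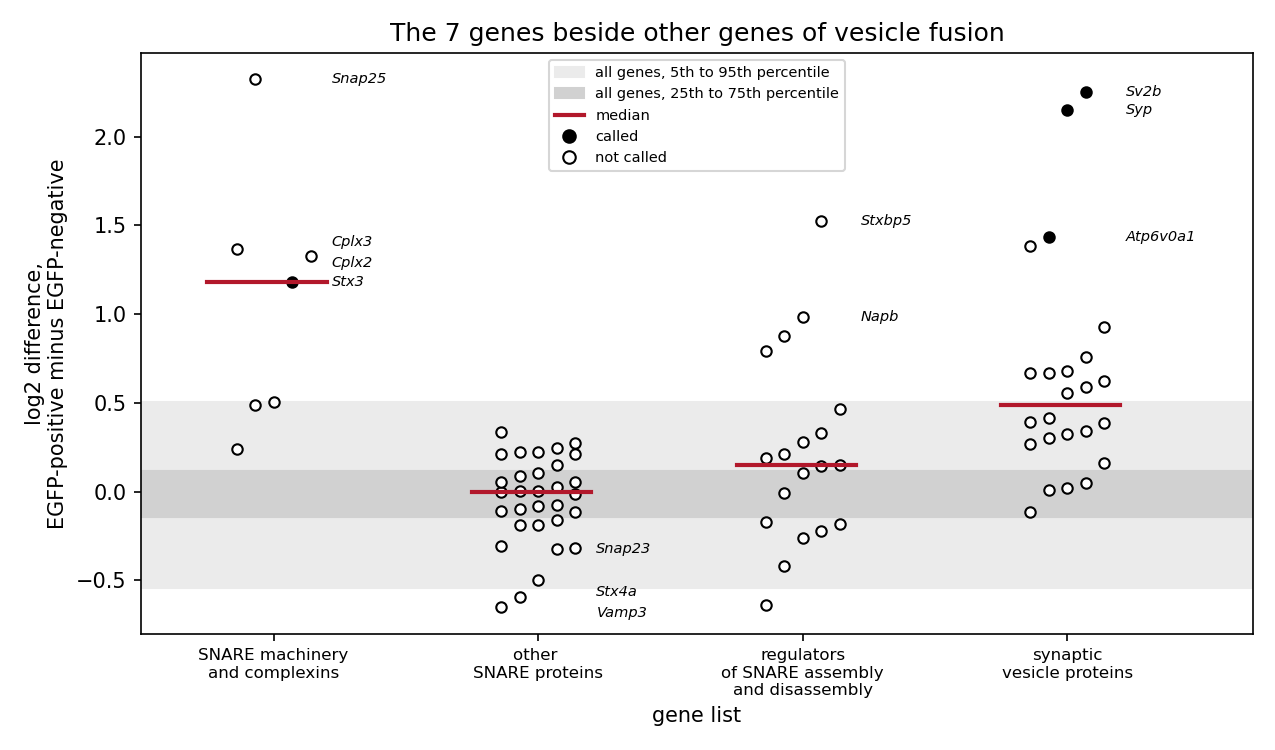
Log2 difference of each measured gene in the list of 7 and in 3 lists of related genes, with filled points for called genes and a red line at each median. The grey bands hold 25% to 75% and 5% to 95% of all genes, the outer one from -0.55 to 0.50. Snap25, Cplx3, Cplx2 and Stx3 lie above the outer band, Cplx1 lies at its upper edge with 0.51, and Nsf and Cplx4 lie inside it. Of the other genes with a name in the plot, Stxbp5, Napb, Syp, Sv2b and Atp6v0a1 lie above it, Vamp3 and Stx4a below it and Snap23 inside it.

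For the 4 members with a difference of at least 1, the genes with the most similar profile were sought as those with the smallest root mean square distance in log2 values centred on each gene's mean over the 4 arrays. For Stx3 these were Kdm5b, a histone demethylase gene (distance 0.02), and the receptor phosphatase gene Ptpro (0.03). Both were called higher, with differences of 1.22 and 1.23. For Snap25 they were Elovl2, a fatty acid elongase gene, and Unc80, of the sodium leak channel complex (0.14 each). Both had the higher replicate 2 of Snap25 in both fractions and were called (2.10 and 2.12). A second, less bright feature of Unc80 read 204.6 and 190.4 on the negative arrays, where replicate 2 was thus the lower. For Cplx2 the most similar genes were the kinesin gene Kif21b (0.02) and the natriuretic peptide receptor gene Npr2 (0.04). Kif21b was called (limma adjusted p = 0.0473) and Npr2 was not (0.0685). For Cplx3 they were Frmpd2 (0.06) and Rgs22 (0.13), neither of them called. Within a distance of 0.1 there were 27 genes for Stx3, 14 for Cplx2, 1 for Cplx3 and 0 for Snap25, and over 4 arrays such likeness describes these arrays only.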

How the data were processed

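RNA of 2 EGFP-positive and 2 EGFP-negative retinal samples (100 ng each, per the labels) was measured on 4 one-colour Affymetrix arrays. The authors deposited normalised intensity values on a linear scale (18.9 to 36625.2, array medians 218.4 to 222.9). Per the submitters' processing notes RMA and build mm8 were used; versions and filters were not given in the sources used here. The linear scale was inferred from the range.

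Values were taken as log2 without a pseudocount. All 22431 features entered one fit in limma 3.58.1, under R 4.3.3 (lmFit, eBayes, no trend, replicate number not in the model), EGFP-positive minus EGFP-negative. P-values are two-sided, Benjamini-Hochberg adjusted over all features, with a threshold of 0.05 for a call. Errors of differences are moderated SE (median 0.12), and the number of arrays limits precision. Annotation gave 1 symbol to 20176 features, several to 412 and none to 1843; a gene with several features took the brightest. In 10 simulations of this comparison over 22431 features, 49.7% of 2-fold, 94.0% of 4-fold and 98.0% of 8-fold changes were called. On average 152.6 features were called, 6.9 of them falsely. The simulated noise was independent between arrays, whereas replicate differences of the 2 fractions correlated in the data (r = 0.48). These shares may therefore not carry over to the data.

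Members, lists and motifs were chosen with earlier results of these data known. Named were the members, Crx and Sox2, up to 4 called genes per related list by size (or the 2 largest if none), and 2 genes most like each member that differed by at least 1; others are given as chosen after their values were seen. Of 79 genes in the related lists, 5 had no feature of their own and were not analysed here. Genome coordinates are given for promoter windows alone, since the gene table's assembly differs from mm8. Alternatives covered scaling, a pseudocount, a filter on low values, the variance model, the replicate number as a block and leaving out each array.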

Additional observations from a re-analysis of the deposited data

How the results depend on the processing

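Over 11 alternatives the 7 members gave 76 values, all in the direction of the main fit, and 60 kept their call; because the fractions of these genes do not overlap, leaving out an array could not turn them. With all arrays 1 member, 3 genes of the related lists and 184 features were called higher, and 32 features lower. Centring each array on its median gave 3 members and 5 list genes, with 219 features higher and 37 lower. A robust variance trend gave 3 members and 4 list genes, with 200 features higher and 47 lower. A fit over genes gave 3 members and 5 list genes, with 203 genes higher and 51 lower, which are counts of genes and not of features. Leaving out 1 array gave 0 to 4 members, 0 to 9 list genes, 0 to 667 features higher and 0 to 762 lower. Both 0 counts came without either negative array, where 1192 (without replicate 1) and 1504 (without replicate 2) features were still higher at an unadjusted p under 0.05. Positive replicate 1 was the lower positive array for Snap25, Cplx2 and Cplx3. Without it their log2 differences rose to 2.63, 1.53 and 1.54, with 1 positive array left. The cause of these shifts was not tested. Cplx4 fell under the filter at the 25th percentile. Other features of a member could not be tried, since each had 1.

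The fractions share replicate numbers, which the labels tie to no animal or sort. Replicate differences of the 2 fractions correlated across features (r = 0.48), genes not being independent. With the replicate block 6 members were called (all but Cplx4), with 17 list genes higher and 5 lower and 1377 features higher and 1500 lower; adjusted p was 0.000797 for Snap25, 0.00344 for Cplx2, 0.0144 for Cplx3, 0.0306 for Cplx1 and 0.0307 for Nsf.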
